A study of Rattus norvegicus with 12 samples.

Results

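Fos, Fosl1, Fosl2, Batf, Jun, Junb, Jund, Maff, Atf3 and Egr1 are the 10 genes described here. They were chosen by symbol from the 13546 genes listed in 1 or more of the 3 deposited tables of an RNA sequencing study. No measured value was a criterion, but earlier results of these data were known. All 10 had a row in each table. They encode basic leucine zipper subunits of AP-1 and their close relatives, and 1 zinc finger early growth response factor. The study used primary cells from the nucleus pulposus, the soft centre of the disc between vertebrae, grown out of spine explants of Wistar rats in medium with serum. All cells had received a lentivirus. In shTon cells it carried an shRNA against TonEBP (the product of Nfat5, a transcription factor of the osmotic stress response), and in PLKO cells a control. The 4 groups, with 3 libraries each, were shTon_TNF (TonEBP shRNA, the cytokine TNF-a at 50 ng/mL for 24 h), shTon_CTR (TonEBP shRNA, untreated), PLKO_TNF (control shRNA, the same TNF-a dose and time) and PLKO_CTR (control shRNA, untreated). Titles number the libraries of a group as sets 1, 2 and 3. What a set stands for is not in the labels, so the p-values below measure the spread between these samples, which may be technical. The sources used here state neither animal age nor the number of shRNA sequences.

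AP-1 is a dimer. FOS proteins must pair with a JUN protein to bind DNA, JUN proteins can also pair with each other, and BATF, ATF3 and the small MAF proteins join the same web of leucine zipper pairings. MAP kinase cascades that TNF receptors switch on raise AP-1 activity, both by phosphorylating JUN and by raising transcription of FOS and EGR1 through serum response factor (SRF), and the responses of Fos and Egr1 to a stimulus are typically brief. In disc and joint cells AP-1 is best known as an activator of matrix metalloproteinase genes. EGR1 binds GC-rich sites as a single protein.

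The sequences around the gene starts were searched for the binding motifs of these and related factors. RefSeq (build GRCr8) gave a promoter window, 250 bases before the start and 50 after it, for 7 of the 10 genes, Fosl1, Fosl2, Junb, Jund, Egr1, Maff and Batf; Fos, Jun and Atf3 had none in that table. Printed are the 3 genes that were called higher after TNF-a in at least 1 comparison below (Fosl1, Maff and Junb), the gene called lower (Jund), and Egr1, whose window held SRF-type boxes. Capitals mark matches to 6 motifs searched on both strands: the AP-1 site TGACTCA, the cyclic AMP response element TGACGTCA, the EGR site GCGGGGGCG, and, by name, the CArG box of SRF, the NF-kB consensus and the core of TonE, the DNA element that TonEBP binds.
Fosl1, chr1:212183635-212183934, plus strand: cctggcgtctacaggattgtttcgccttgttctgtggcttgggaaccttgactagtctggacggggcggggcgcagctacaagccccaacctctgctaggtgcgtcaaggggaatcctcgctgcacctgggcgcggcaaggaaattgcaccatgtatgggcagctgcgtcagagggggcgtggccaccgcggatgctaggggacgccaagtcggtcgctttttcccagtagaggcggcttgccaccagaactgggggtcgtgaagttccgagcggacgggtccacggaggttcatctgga
Maff, chr7:112792537-112792836, plus strand: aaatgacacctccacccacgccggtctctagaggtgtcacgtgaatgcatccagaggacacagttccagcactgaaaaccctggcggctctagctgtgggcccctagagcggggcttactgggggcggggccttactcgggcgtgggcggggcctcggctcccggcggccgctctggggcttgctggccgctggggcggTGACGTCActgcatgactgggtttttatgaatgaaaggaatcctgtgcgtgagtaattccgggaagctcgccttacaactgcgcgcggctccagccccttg
Junb, chr19:40080876-40081175, plus strand: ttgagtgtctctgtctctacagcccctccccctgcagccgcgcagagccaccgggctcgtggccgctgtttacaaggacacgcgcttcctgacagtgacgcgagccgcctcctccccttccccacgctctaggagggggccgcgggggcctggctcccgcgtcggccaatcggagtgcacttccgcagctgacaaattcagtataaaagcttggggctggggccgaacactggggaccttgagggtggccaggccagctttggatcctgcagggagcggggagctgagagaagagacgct
Jund, chr16:18769722-18770021, minus strand: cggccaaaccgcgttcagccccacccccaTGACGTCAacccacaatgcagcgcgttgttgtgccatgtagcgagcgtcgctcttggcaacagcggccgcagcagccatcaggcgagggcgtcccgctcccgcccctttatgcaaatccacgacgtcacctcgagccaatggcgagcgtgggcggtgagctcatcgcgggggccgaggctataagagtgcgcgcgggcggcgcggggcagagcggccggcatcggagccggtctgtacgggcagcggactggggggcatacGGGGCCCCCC
Egr1, chr18:26736828-26737127, plus strand: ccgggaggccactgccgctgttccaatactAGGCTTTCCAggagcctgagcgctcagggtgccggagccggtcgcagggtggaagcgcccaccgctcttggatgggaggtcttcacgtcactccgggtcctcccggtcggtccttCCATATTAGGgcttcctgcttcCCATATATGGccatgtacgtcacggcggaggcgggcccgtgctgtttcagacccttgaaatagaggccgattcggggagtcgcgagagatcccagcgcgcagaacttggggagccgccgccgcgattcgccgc
The Maff window held TGACGTCA at bases -51 to -44 from the gene start, and the Jund window held it at -221 to -214, beside an NF-kB consensus match, GGGGCCCCCC, at 40 to 49. The Egr1 window held a pair of CArG boxes, CCATATTAGG at -105 to -96 and CCATATATGG at -83 to -74, and a TonE core, AGGCTTTCCA, at -220 to -211. Of the windows not printed, that of Fosl2 held the EGR site at -249 to -241 and that of Batf an NF-kB match, GGGATTTTCC, at -227 to -218. None of the 6 motifs occurred in the windows of Fosl1 and Junb, which says only that these letters are not in those 300 bases. No 2 matches overlapped. Among 33469 RefSeq promoters of 300 bases, TGACTCA occurred in 4.63%, TGACGTCA in 1.83%, GCGGGGGCG in 2.73%, the CArG box in 1.64%, the NF-kB consensus in 7.51% and the TonE core in 11.7%. A match is a description and no evidence of binding in these cells.

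Reads on listed genes numbered 7160042 to 18645538 per library, each summed over all genes of the deposited table that gave that library the most reads. Sets set the libraries apart: limma's test among sets passed an adjusted p of 0.05 for 2 of the 10 members, Jun and Batf, and for 45.4% of 12310 genes. Nfat5, the shRNA target, had 1695, 499.7 and 231.7 normalised reads in shTon_TNF libraries of sets 1, 2 and 3, 457.8, 457 and 287.6 in shTon_CTR, 641.5, 1092 and 483.1 in PLKO_TNF and 685, 1363 and 1818 in PLKO_CTR. The library labelled shTon_TNF of set 1 thus goes against its label, and where leaving out set 1 moves a value that uses this library by over 1.5 times, the value without it is given. Of 15 nucleus pulposus and notochord markers, 6 (Krt8, Cd24, Foxf1, Pax1, Car3 and Hif1a) averaged at least 10 normalised reads and Nog lay below that. The other 8, Acan, Col2a1 and Sox9 among them, had no row under these symbols among the joined genes. The summed reads of 10 skeletal muscle genes, of 13 in the list, were 40690 to 92370 in set 1, 15670 to 28500 in set 2 and 171.2 to 256.4 in set 3. Of the other cell types, 2 of 10 leukocyte markers (Cd68 and Cd14) summed to 186.4 to 677.5 reads per library and 1 of 6 endothelial markers (Tek) had 6.046 to 37.74. The rest of these leukocyte and endothelial markers had no row among the joined genes. In bulk RNA, fewer cells of a type and less RNA per cell cannot be told apart.

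TNF-a for 24 h changed a few of these genes, in different directions. In shTon cells Fosl1, Maff and Junb rose and none of the 9 tested members fell; Batf was under the filter of 10 mean normalised reads there. In PLKO cells Fosl1 and Maff rose, Jund fell, and Junb and Atf3 had positive fold changes with adjusted p-values just over the threshold. Fos, the gene most often used as a sign of acute stimulation, was called in neither. Thus 3 of 9 members passed an adjusted p of 0.05 in shTon_TNF against shTon_CTR, where 3.28% of all 12339 genes tested did, and 3 of 10 passed in PLKO_TNF against PLKO_CTR, where 9.62% of 12373 did (limma with the set as a term, Benjamini-Hochberg over all genes). The limma calls depend on the set term: without it no member passed in either comparison, with adjusted p-values of 0.191 to 0.366 in shTon cells and 0.439 to 0.775 in PLKO cells for the genes called, while DESeq2 without it called Fosl1, Maff and Junb in shTon cells and Fosl1 and Maff in PLKO cells. The limma calls also depend on the mean-variance trend of the fit, without which Fosl1 in shTon cells (adjusted p = 0.0477) was the sole member called.

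**Figure D1:**
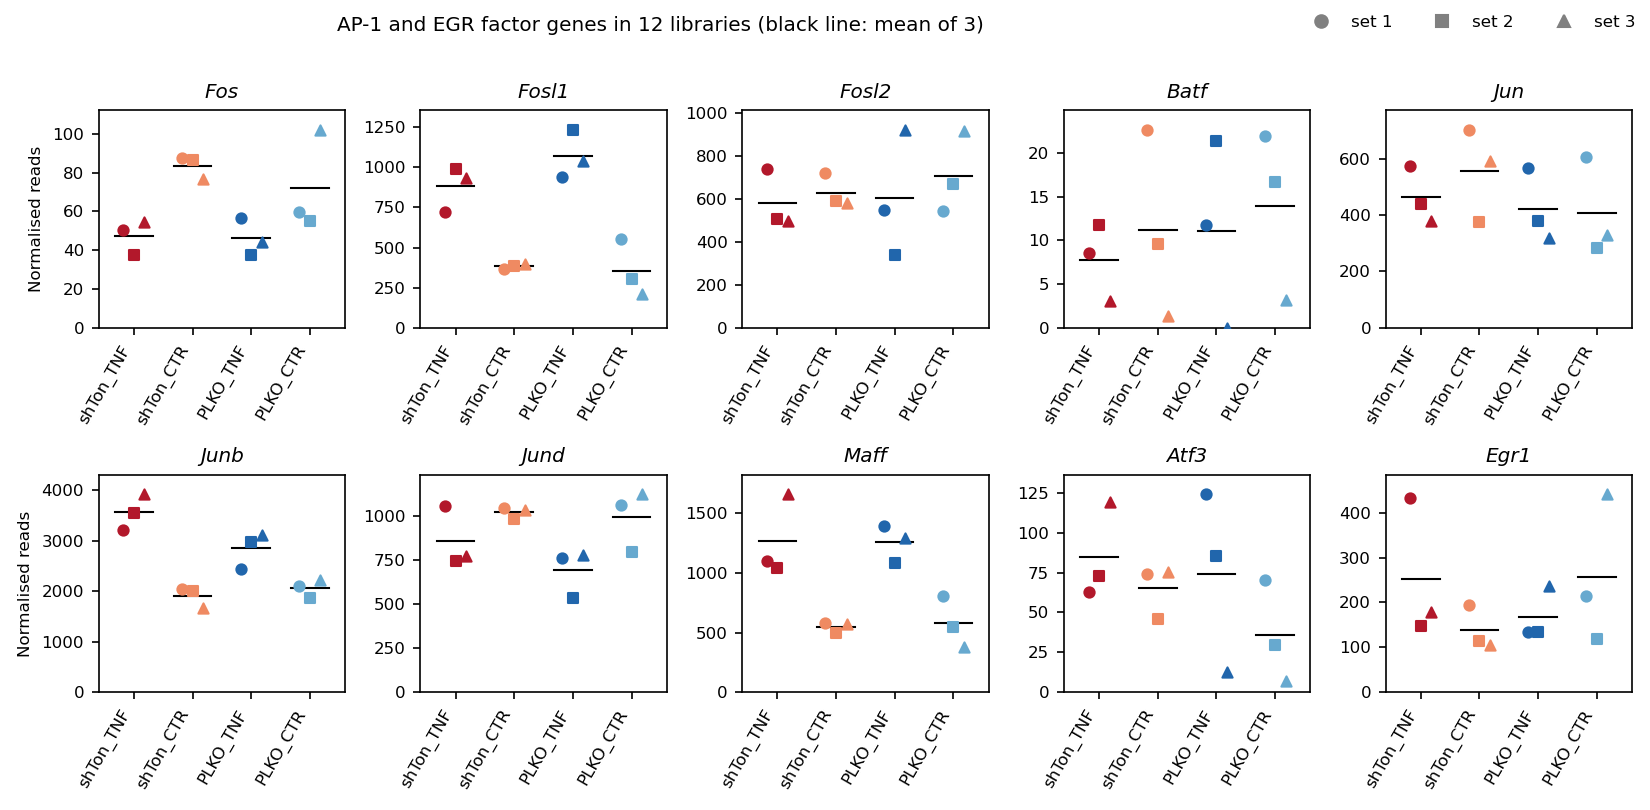
Normalised reads (y axis, linear, from 0) of each of the 10 genes in the 12 libraries, scaled together, by group (x axis); symbols give the set and black lines the mean of 3. Fosl1, Maff and Junb lie higher in both TNF-a groups than in the matching untreated group with no overlap. Jund in PLKO cells and Fos in shTon cells lie lower with TNF-a, also with no overlap. Fosl2, Jun, Egr1, Atf3 and Batf overlap between every pair of groups compared. The share of all genes whose groups do not overlap was not counted.

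Levels below are normalised reads on a scale shared by the 12 libraries, given for sets 1, 2 and 3 in that order, and they compare libraries, not genes. How often groups of 3 libraries fail to overlap over all genes was not counted, so statements on overlap only describe each gene. Fosl1 encodes FRA-1, a FOS family protein that lacks the strong activation domain of c-Fos. It had 721.3, 991.6 and 935.7 normalised reads in shTon_TNF libraries, against 368.3, 383.8 and 395.6 in shTon_CTR libraries. In PLKO_TNF libraries it had 939.7, 1232 and 1041, against 552.5, 302.3 and 209.1 in PLKO_CTR libraries. Every library given TNF-a lay above every untreated library of either vector, and the spread was widest in PLKO_CTR. Means were 882.9 ± 143 in shTon_TNF and 382.6 ± 13.7 in shTon_CTR (SD, n = 3 each), a log2 fold change of 1.19 (SE 0.14, limma adjusted p = 0.00815). Means were 1071 ± 148 in PLKO_TNF and 354.6 ± 178 in PLKO_CTR (SD, n = 3 each), a log2 fold change of 1.70 (SE 0.27, limma adjusted p = 0.0177). Within PLKO cells the size of the rise differed by set, with log2 ratios of 0.77, 2.02 and 2.31 in sets 1 to 3, whereas within shTon cells the ratios were 0.97, 1.37 and 1.24. The authors' deposited table gives Fosl1 a log2 fold change of 1.44 for PLKO_TNF over PLKO_CTR, with an adjusted p of 1.01e-08. In shTon cells the adjusted p was 0.0534 when all 12 libraries shared 1 estimate of the spread.

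Fos, which encodes c-Fos, was present at low counts. It had 50.15, 37.31 and 54.51 normalised reads in shTon_TNF libraries, against 87.61, 86.36 and 76.78 in shTon_CTR libraries. In PLKO_TNF libraries it had 56.8, 37.35 and 44.38, against 59.64, 55.17 and 101.9 in PLKO_CTR libraries. The shTon groups did not overlap, the PLKO groups did, and in all 3 sets of both vectors the library with TNF-a was the lower. Neither difference passed the test, with log2 fold changes of -0.82 (SE 0.23, limma adjusted p = 0.11) in shTon cells and -0.60 (SE 0.26, limma adjusted p = 0.18) in PLKO cells. Fosl2, which encodes FRA-2, gave -0.13 (95% interval -0.44 to 0.17) in shTon cells and -0.31 (-0.79 to 0.16) in PLKO cells. Its levels were 498.1 to 740.5 in shTon_TNF, 580.4 to 718.7 in shTon_CTR, 340.5 to 920.5 in PLKO_TNF and 542.4 to 915.5 in PLKO_CTR. Without set 1 the shTon value was -0.22. The PLKO estimate rests on set 2, where the log2 ratio was -0.97; those of sets 1 and 3 were 0.02 and 0.01.

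Batf, a leucine zipper partner of JUN proteins best known from lymphocytes, was near the limit of detection. Its recovered reads were 8, 12 and 2 in shTon_TNF, 24, 8 and 1 in shTon_CTR, 19, 20 and 0 in PLKO_TNF and 35, 22 and 3 in PLKO_CTR. A count of 0 in the PLKO_TNF library of set 3 allows up to 3.8 normalised reads (3 reads, counting error only). Differences followed the set: means were 16.21 ± 7.14, 14.84 ± 5.24 and 1.863 ± 1.5 normalised reads in sets 1, 2 and 3 (SD, n = 4 libraries, 1 of each group), with an adjusted p of 0.0019 in limma's test among sets. Skeletal muscle transcripts were also lowest in set 3, as given above, and their part in the difference was not tested. For TNF-a in PLKO cells the log2 fold change of Batf was -0.91 (SE 0.55, limma adjusted p = 0.318).

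Junb encodes a JUN protein that activates less strongly than c-Jun and can hold it in check. It had 3220, 3553 and 3918 normalised reads in shTon_TNF libraries, against 2051, 2011 and 1667 in shTon_CTR libraries. In PLKO_TNF libraries it had 2449, 2974 and 3119, against 2104, 1864 and 2231 in PLKO_CTR libraries. Neither pair of groups overlapped, and the 3 shTon_TNF libraries were the highest of the 12. Means were 3564 ± 349 in shTon_TNF and 1910 ± 211 in shTon_CTR (SD, n = 3 each), a log2 fold change of 0.90 (SE 0.15, limma adjusted p = 0.025). Means were 2847 ± 353 in PLKO_TNF and 2067 ± 186 in PLKO_CTR (SD, n = 3 each), a log2 fold change of 0.46 (SE 0.12, limma adjusted p = 0.054) that missed the threshold. That PLKO difference passed with DESeq2 (adjusted p = 0.0356) and in limma without set 1 (adjusted p = 0.0338), and the authors' deposited table gives it a log2 fold change of 0.43 with an adjusted p of 0.038.

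Jund encodes the JUN protein that resting cells hold at a steady level. It had 761.9, 530.4 and 774.7 normalised reads in PLKO_TNF libraries, against 1058, 794.3 and 1120 in PLKO_CTR libraries. The groups lay next to each other without overlap, and the log2 ratio was alike in the 3 sets (-0.47, -0.58 and -0.53). Jund fell by 0.53 on the log2 scale in PLKO cells (SE 0.095, limma adjusted p = 0.0228), to 689 ± 137 in PLKO_TNF, against 990.9 ± 173 in PLKO_CTR (SD, n = 3 each). The call was lost without set 2 (adjusted p = 0.0967) and with 1 spread for all 12 libraries (adjusted p = 0.0561). In shTon_TNF libraries it had 1054, 742.3 and 769.1, against 1044, 981.1 and 1029 in shTon_CTR libraries, and the groups overlapped through the shTon_TNF library of set 1. The log2 fold change was -0.27 in shTon cells (SE 0.14, limma adjusted p = 0.354), and -0.41 without set 1 (limma adjusted p = 0.145).

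Jun, which encodes c-Jun, varied with the set. Means were 611.4 ± 62.5, 369.8 ± 64.6 and 405.6 ± 128 normalised reads in sets 1, 2 and 3 (SD, n = 4 libraries, 1 of each group), with an adjusted p of 0.00675 in limma's test among sets. It had 573, 440.8 and 380 normalised reads in shTon_TNF, 701.8, 374.2 and 593.4 in shTon_CTR, 566.2, 379.9 and 318.2 in PLKO_TNF and 604.6, 284.2 and 330.8 in PLKO_CTR. Set 1 was the highest in each of the 4 groups, and the groups overlapped throughout. The log2 fold change for TNF-a was -0.23 (95% interval -0.67 to 0.20) in shTon cells and 0.09 (-0.24 to 0.42) in PLKO cells.

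Maff encodes a small MAF protein, which has no activation domain of its own and pairs with CNC factors such as NRF2 and BACH1. It had 1099, 1045 and 1659 normalised reads in shTon_TNF libraries, against 578.4, 497.7 and 573.9 in shTon_CTR libraries. In PLKO_TNF libraries it had 1392, 1082 and 1293, against 810.5, 544.9 and 378.7 in PLKO_CTR libraries. All 6 libraries given TNF-a lay above all 6 untreated libraries. Means were 1268 ± 340 in shTon_TNF and 550 ± 45.3 in shTon_CTR (SD, n = 3 each), a log2 fold change of 1.17 (SE 0.15, limma adjusted p = 0.011). Means were 1256 ± 158 in PLKO_TNF and 578 ± 218 in PLKO_CTR (SD, n = 3 each), a log2 fold change of 1.18 (SE 0.19, limma adjusted p = 0.0172). The difference between these effects was -0.005 on the log2 scale, with a 95% interval of -0.76 to 0.75, and -0.08 without set 1. The authors' deposited table gives Maff a log2 fold change of 1.05 for PLKO_TNF over PLKO_CTR, with an adjusted p of 1.43e-06.

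Atf3 encodes a stress-induced factor that represses transcription as a homodimer and can activate in pairs with JUN proteins. It had 62.95, 72.65 and 119.6 normalised reads in shTon_TNF libraries, against 74.42, 45.58 and 75.48 in shTon_CTR libraries. In PLKO_TNF libraries it had 124.1, 85.38 and 12.68, against 70.32, 29.47 and 7.282 in PLKO_CTR libraries. Both PLKO libraries of set 3 were far below the rest, with 10 recovered reads in PLKO_TNF and 7 in PLKO_CTR, and the groups overlapped in each vector. In every set the PLKO library with TNF-a was the higher, and the log2 fold change was 1.02 (SE 0.26, limma adjusted p = 0.0561). It passed with edgeR (adjusted p = 0.0429) and in limma without set 3 (adjusted p = 0.0192). The authors' deposited table gives 0.79, with an adjusted p of 0.0427. In shTon cells the log2 fold change was 0.36 (SE 0.25, limma adjusted p = 0.486), and 0.66 without set 1 (limma adjusted p = 0.136).

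Egr1, the early growth response factor, had 432.1, 148.3 and 178.7 normalised reads in shTon_TNF libraries, against 195, 115.1 and 104.1 in shTon_CTR libraries. In PLKO_TNF libraries it had 135.2, 134.5 and 235.8, against 214.1, 118.6 and 441.1 in PLKO_CTR libraries. The highest values were those of shTon_TNF set 1 and PLKO_CTR set 3, which were also the 2 libraries with the most Nfat5 reads, and the groups overlapped in both vectors. The PLKO_CTR library of set 2, next in Nfat5 reads with 1363, had 118.6 Egr1 reads, and a link between the genes was not tested. Neither TNF-a effect passed: the log2 fold change was 0.76 in shTon cells (SE 0.19, limma adjusted p = 0.0917) and -0.46 in PLKO cells (SE 0.22, limma adjusted p = 0.216). Without set 1 the value in shTon cells was 0.57 (limma adjusted p = 0.129).

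**Figure D2:**
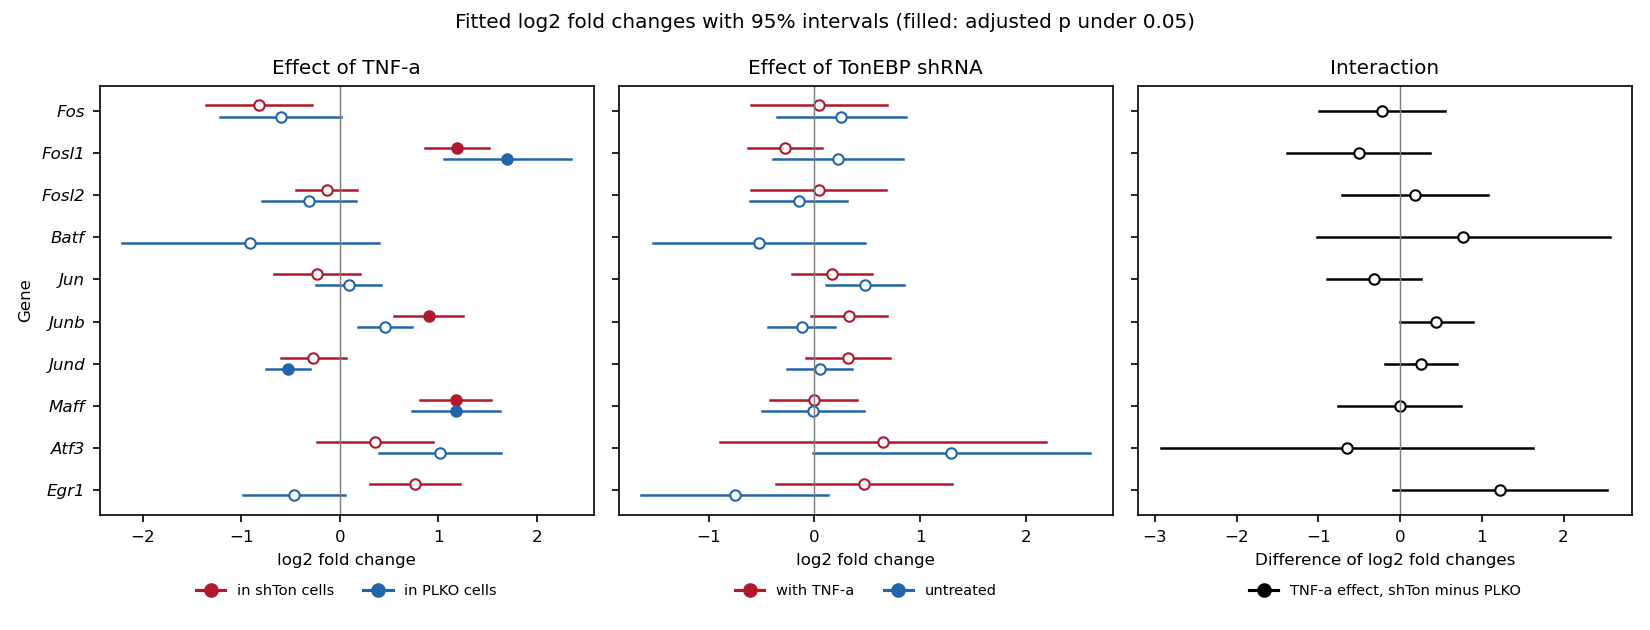
Log2 fold changes from limma (x axis) of the 10 genes (y axis) for TNF-a in shTon and PLKO cells, for the TonEBP shRNA with and without TNF-a, and for the interaction; lines are 95% intervals and filled points passed an adjusted p of 0.05. Filled points stand in the TNF-a panel alone: Fosl1 and Maff in both vectors, Junb in shTon cells and Jund in PLKO cells.

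The TNF-a calls in shTon cells were also made without the library of set 1 in which Nfat5 goes against the label. Without set 1, Fosl1, Maff and Junb had log2 fold changes of 1.30, 1.30 and 1.03 for shTon_TNF against shTon_CTR. Their limma adjusted p-values were 2.92e-06, 3.46e-06 and 0.000144, and all 3 also passed without set 2 and without set 3. Each of these fits has 2 libraries per group and takes its spread largely from all genes, so the smaller p-values are no stronger evidence. More of all genes also passed without set 1 than in the main fit, as counted in the last section. The shares of all genes without set 2 and without set 3 are not given here. In the same comparison Krt8, a nucleus pulposus marker, and Myod1, a myogenic factor, were lower in shTon_TNF than in shTon_CTR (log2 fold changes -0.83 and -1.21, limma adjusted p-values 0.0316 and 0.037). In PLKO cells the nucleus pulposus markers Krt8 (-1.10, adjusted p = 0.023) and Pax1 (-1.45, adjusted p = 0.0232), the annulus and tendon factor Scx (-0.76, adjusted p = 0.0157), the fibroblast collagen Col3a1 (-1.70, adjusted p = 0.00934) and Myod1 (-1.49, adjusted p = 0.0112) were lower with TNF-a in limma. Over whole lists these were 2 of 6 nucleus pulposus markers, 1 of 3 annulus and tendon markers, 1 of 6 fibroblast markers and 1 of 10 skeletal muscle markers in PLKO cells, where 9.62% of all genes passed, and 1 of 6 nucleus pulposus and 1 of 10 skeletal muscle markers in shTon cells, where 3.28% did. Summed fibroblast markers were 25930 to 92260 reads in shTon_TNF, 39170 to 118900 in shTon_CTR, 29340 to 38580 in PLKO_TNF and 35500 to 92240 in PLKO_CTR. Summed nucleus pulposus markers were 7025 to 13450 in shTon_TNF, 9576 to 19020 in shTon_CTR, 8035 to 12190 in PLKO_TNF and 10660 to 14280 in PLKO_CTR. These ranges overlap but pool the sets, which had 12190 to 19020 in set 1, 7025 to 10680 in set 2 and 7302 to 10660 in set 3. Of the 6 tested nucleus pulposus markers, 0 had a positive TNF-a fold change in PLKO cells (median -1.10 beside -0.014 for all genes). In shTon cells 1 of 6 had (median -0.74 beside -0.006). Their part in the results for the AP-1 and EGR genes was not tested.

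None of these genes was called in the comparisons of shTon with PLKO cells. Nfat5, the shRNA target, was not called either. Its log2 fold change was -0.26 with TNF-a (SE 0.44, limma adjusted p = 0.799) and -1.61 untreated (SE 0.33, limma adjusted p = 0.0963). Its log2 ratios with TNF-a were 1.40, -1.13 and -1.06 in sets 1 to 3, so a lower target RNA is not shown there. With TNF-a, 0 of 9 members passed in shTon_TNF against PLKO_TNF, where 0.254% of 12213 genes did, and no member had an unadjusted p under 0.05. Untreated, 0 of 10 passed in shTon_CTR against PLKO_CTR, where 0.113% of 12383 genes did, and 1 member, Jun, had an unadjusted p under 0.05. With so few genes called in all, counts of 0 members lie near that background. edgeR and DESeq2 with the set as a term called 0 members in both comparisons as well, and none has an adjusted p under 0.05 in the authors' deposited tables. Jun had a log2 fold change of 0.48 without TNF-a (SE 0.16, unadjusted p = 0.0174, limma adjusted p = 0.195) and was higher in shTon_CTR than in PLKO_CTR in all 3 sets. Junb was higher in shTon_TNF than in PLKO_TNF in all 3 sets without overlap, with a log2 fold change of 0.33 (95% interval -0.03 to 0.69, limma adjusted p = 0.328). For Fosl1 the interval was -0.63 to 0.07 with TNF-a and -0.39 to 0.84 without, and for Maff -0.42 to 0.40 with TNF-a and -0.49 to 0.47 without.

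The estimates of Atf3 and Egr1 under the shRNA rested on single sets. Atf3 had log2 ratios of -0.97, -0.23 and 3.14 in sets 1 to 3 for shTon_TNF over PLKO_TNF, and 0.08, 0.61 and 3.21 for shTon_CTR over PLKO_CTR. Its fitted log2 fold change with TNF-a was 0.65 (SE 0.67), 1.45 without set 1 and -0.59 without set 3. For Egr1 the ratios were 1.67, 0.14 and -0.40 with TNF-a and -0.13, -0.04 and -2.07 without it. The set 1 ratio comes from the library whose Nfat5 level goes against its label, and without that set the fitted value with TNF-a was -0.13, against 0.47 with it.

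**Figure D3:**
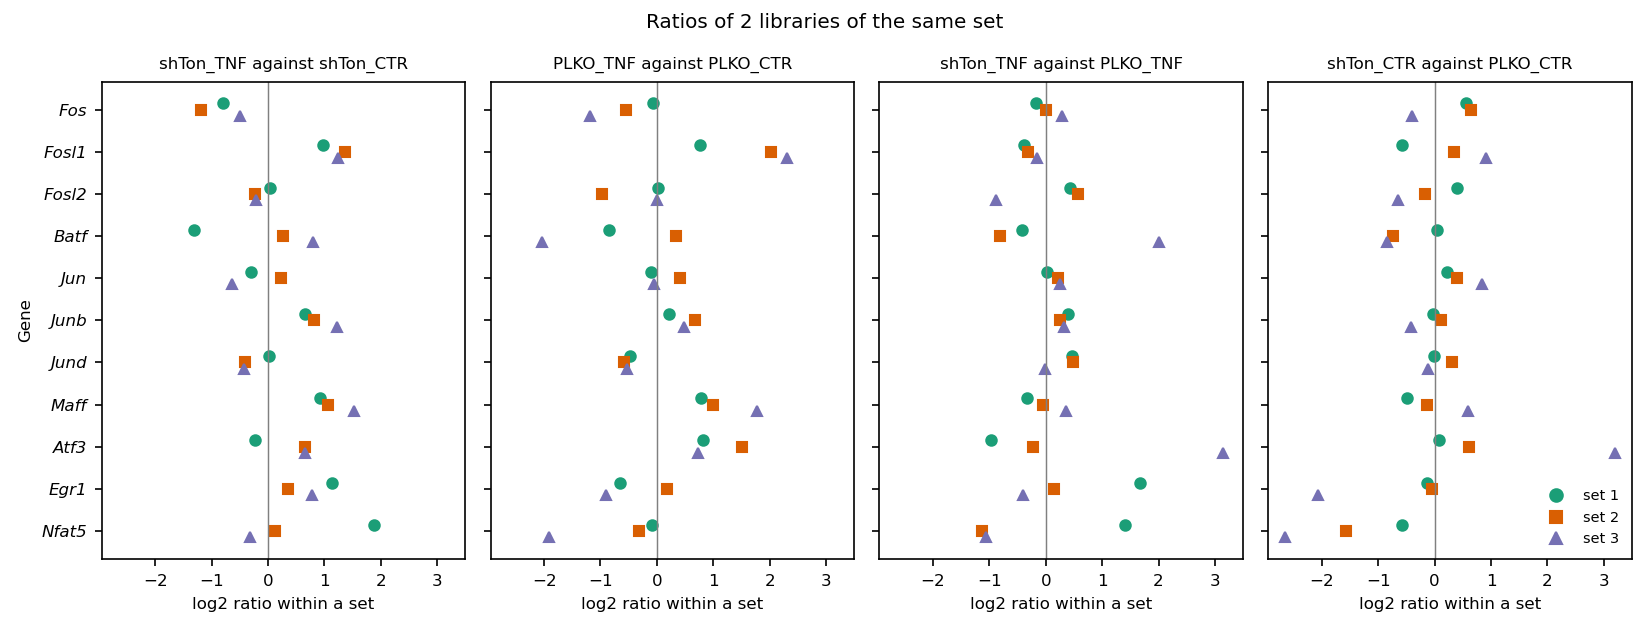
Log2 ratio of the 2 libraries of the same set (x axis) for each of the 10 genes and Nfat5 (y axis) in 4 comparisons, with symbols for sets 1 to 3. The ratios of Fosl1, Maff and Junb are positive in all 3 sets for TNF-a in both vectors, and those of Atf3 under the shRNA range from -0.97 in set 1 to 3.14 in set 3 with TNF-a.

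No difference between the TNF-a effects in shTon and PLKO cells was called. In the interaction test over the 12 libraries 0 of 10 members and 0% of 12310 genes passed (219 genes had an unadjusted p under 0.05 in limma, and edgeR and DESeq2 called 0 genes). For Junb, called in shTon but not in PLKO cells, the difference of effects was 0.44 on the log2 scale (95% interval -0.001 to 0.89, unadjusted p = 0.0504, limma adjusted p = 0.999). For Jund, called in PLKO but not in shTon cells, it was 0.26 (-0.18 to 0.70), and 0.15 without set 1, so neither gene is shown to respond differently. For Fosl1 it was -0.51 (-1.39 to 0.37), and -0.86 without set 1 (unadjusted p = 0.00751, limma adjusted p = 1). Egr1 had the widest split in direction, with a difference of 1.22 (-0.09 to 2.53). The TNF-a effects and the shRNA effects share libraries, so their values stand side by side and are not compared as independent results.

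Genes known from textbooks as AP-1 targets rose with TNF-a in both vectors. In shTon_TNF against shTon_CTR 15 of 18 rose and none fell, with a median log2 fold change of 1.38 beside -0.006 for all genes tested. In PLKO_TNF against PLKO_CTR 14 of 18 rose and none fell, with a median of 1.63 beside -0.014. All 18 fold changes were positive in both comparisons. The list was drawn up with results of these data known, and several of its genes are NF-kB targets too. Matrix-degrading enzymes led: the gelatinase gene Mmp9 rose by 3.93 on the log2 scale in shTon cells (SE 0.23) and by 3.79 in PLKO cells (SE 0.21), and the stromelysin gene Mmp10 by 2.73 (SE 0.16) and 2.99 (SE 0.30). Plau, which encodes urokinase, rose by 2.70 in shTon cells (SE 0.14), and Mmp3 by 2.75 in PLKO cells (SE 0.28), and the largest limma adjusted p among these values was 0.00455. Without the set term 1 of these 18 genes passed in shTon cells and 0 in PLKO cells in limma and in edgeR, and 9 and 5 rose in DESeq2.

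In limma few of the same targets were called under the shRNA, but few genes were called in all, 0.254% with TNF-a and 0.113% untreated. In shTon_TNF against PLKO_TNF 1 of 18 rose, Plau by 1.32 on the log2 scale (SE 0.18, limma adjusted p = 0.0389), and 2 fell, both cytokine genes. Il6 fell by 1.92 (SE 0.16, limma adjusted p = 0.0231) and Il11 fell by 1.83 (SE 0.18, limma adjusted p = 0.0279) on the same scale. The list's median was -0.81 beside 0.02 for all genes, and 5 of the 18 fold changes were positive. In the same comparison 1 of 6 fibroblast markers, the collagen gene Col3a1, was higher in shTon_TNF than in PLKO_TNF (1.53, SE 0.21, limma adjusted p = 0.0389), and Col1a1 had 1.56 (SE 0.26, limma adjusted p = 0.074). Col1a2 (1.03) and Dpt (0.11) were also positive, while Pdgfra (-0.66) and Thy1 (-0.36) were negative, none of them called. Summed fibroblast markers are given above, and their part in these changes was not tested. Untreated, Il11 alone was called, and it fell by 2.06 (SE 0.17, limma adjusted p = 0.0259), with a list median of -0.45 beside 0.007. Of the 18 untreated fold changes 4 were positive. These counts depend on the fit: without the set term limma and edgeR called 0 of 18 in both comparisons and DESeq2 called 1 higher and 2 lower with TNF-a and 0 and 1 untreated. With all 12 libraries in 1 fit there were 1 higher and 7 lower with TNF-a and none untreated. Without set 1 there were 1 higher and 7 lower with TNF-a, without set 2 there were 1 and 6, and without set 3 there were 0 and 2. Untreated, the counts of higher and lower genes were 1 and 4 without set 1, 0 and 3 without set 2, and 1 and 6 without set 3. DESeq2 with the set as a term gave 1 higher and 10 lower with TNF-a and 1 higher and 8 lower without it. The interaction test called none of the 18, and the smallest p was that of Hmox1, heme oxygenase (-1.37, SE 0.41, unadjusted p = 0.00677, limma adjusted p = 0.999).

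**Figure D4:**
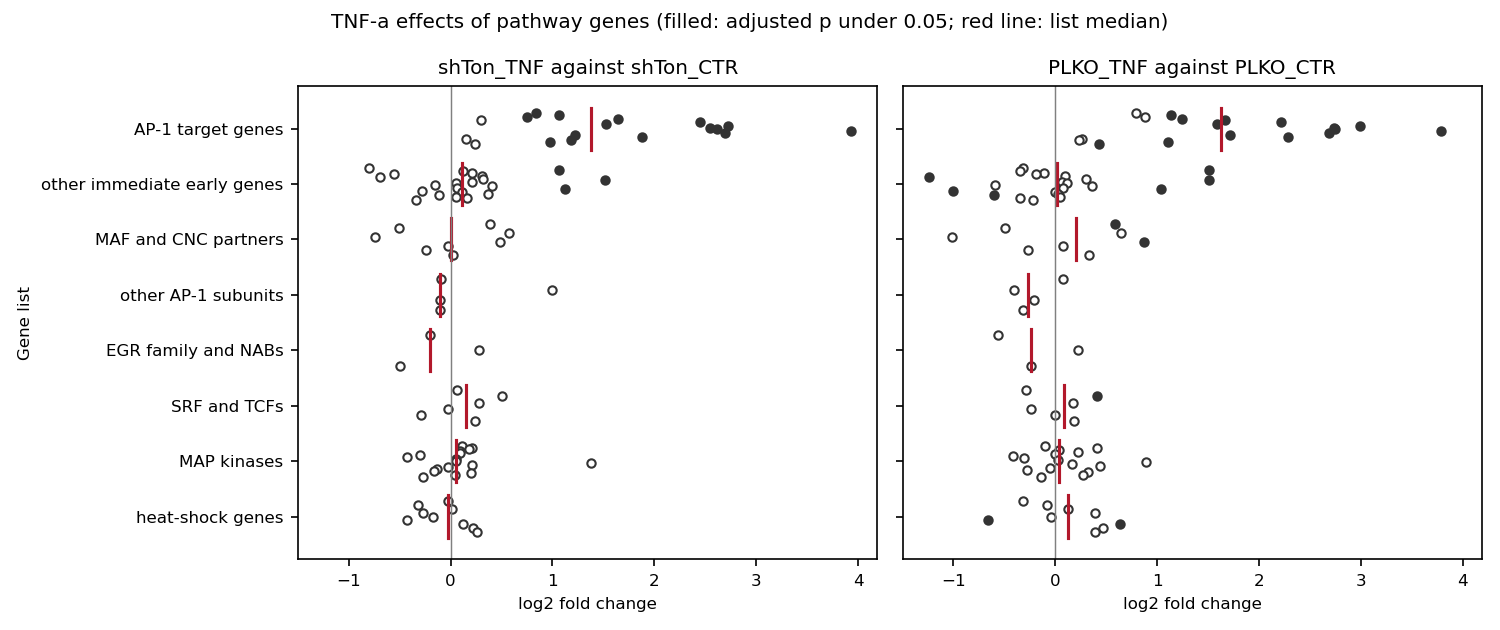
Log2 fold changes (x axis) for TNF-a in shTon cells (left) and PLKO cells (right) of each gene in 8 lists (y axis); filled points passed an adjusted p of 0.05 in limma and red lines mark list medians. The AP-1 targets lie to the right of 0 in both panels with medians of 1.38 and 1.63, and the other 7 list medians lie between -0.26 and 0.20.

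The other immediate early genes divided, where 3.28% of all genes were called for TNF-a in shTon cells and 9.62% in PLKO cells. In shTon cells 3 of 22 rose with TNF-a and none fell: Ier3, an early response gene of cell survival (1.52, SE 0.22, adjusted p = 0.0168), Myc (1.13, SE 0.14, adjusted p = 0.00978) and the antiproliferative Btg2 (1.07, SE 0.15, adjusted p = 0.0158), all in limma. In PLKO cells 3 rose and 3 fell. The largest changes were in Ier3 (1.51, SE 0.26, adjusted p = 0.0214), Btg2 (1.51, SE 0.24, adjusted p = 0.0176) and Gadd45g, a growth arrest gene (-1.24, SE 0.23, adjusted p = 0.0253). List medians were 0.12 in shTon cells and 0.02 in PLKO cells. Without set 1, 3 rose and 2 fell in shTon cells. Neither shRNA comparison called any of the 22 in the main limma fit or in edgeR with the set term. DESeq2 called 1 higher and 1 lower with TNF-a and 0 and 2 untreated. In limma without set 1 there were 2 higher and 1 lower with TNF-a and 0 and 1 untreated. With TNF-a 1 was higher without set 2 and with all 12 libraries in 1 fit, and untreated 2 were lower without set 3.

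The lists of partners, regulators and stress genes had median TNF-a changes of -0.26 to 0.20, beside 1.38 and 1.63 for the AP-1 targets. Over all genes tested, 3.28% were called for TNF-a in shTon cells and 9.62% in PLKO cells. Of 8 MAF and CNC genes tested, none passed in shTon cells and 2 rose with TNF-a in PLKO cells, both partners in small MAF complexes: Mafg (0.87, SE 0.14, limma adjusted p = 0.0167) and Bach1 (0.59, SE 0.10, limma adjusted p = 0.0226). In shTon cells Mafg had 0.49 (limma adjusted p = 0.106). In PLKO cells the list had 2 higher and 1 lower gene without set 1, and 1 higher gene without set 2, without set 3 and with all 12 libraries in 1 fit, and in shTon cells 1 was lower without set 1. Of 6 SRF and ternary complex factor genes, Elk3 rose by 0.41 in PLKO cells (SE 0.095, limma adjusted p = 0.0438), and in shTon cells it had 0.50 (limma adjusted p = 0.102). No gene of that list passed in PLKO cells when any 1 set was left out or with all 12 libraries in 1 fit. None of 4 other AP-1 subunit genes, and none of 3 genes of the EGR family and its NAB corepressors, passed for TNF-a in either vector, with the smallest p for Atf7 (0.99, adjusted p = 0.311) and Nab2 (-0.50, adjusted p = 0.0762) in shTon cells, in limma. No MAP kinase pathway gene passed either, of 17 tested in shTon cells and 16 in PLKO cells. The p38 kinase gene Mapk11 came nearest, with 1.38 in shTon cells (SE 0.28, limma adjusted p = 0.0514) and 0.90 in PLKO cells (SE 0.24, limma adjusted p = 0.0586). In shTon cells 1 gene of the list was called higher with edgeR, with all 12 libraries in 1 fit and without set 1, and in PLKO cells 1 was called without set 1. Of 9 heat-shock and handling-stress genes, none passed in shTon cells, while in PLKO cells Hspd1 rose by 0.63 and Hspb1 fell by 0.66 (limma adjusted p-values 0.0239 and 0.0132). Without set 1 the counts in PLKO cells were 3 higher and 1 lower, and without set 2 or with all 12 libraries in 1 fit 0 higher and 1 lower. None of these 6 lists held a gene called in either shRNA comparison in limma or edgeR, and DESeq2 called 1 MAP kinase pathway gene lower in untreated cells.

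Set-centred profiles over the 12 libraries were compared with those of all named genes outside the members, genes of the lists above included. The gene closest to Fosl1 was Txnrd1, thioredoxin reductase. Their root-mean-square difference was 0.186 on the log2 scale, beside a root-mean-square deviation of 0.794 for Fosl1 itself. For Maff the closest was Riok3 (0.145 beside 0.641), for Junb Znrf2 (0.13 beside 0.381) and for Jund Zbtb38 (0.0675 beside 0.258). The closest to Fos was Ap3s1 (0.156 beside 0.421) and to Jun Dgka (0.0778 beside 0.254). The closest to Fosl2 was Ogt (0.131 beside 0.332). For Atf3, Egr1 and Batf the smallest differences were larger, at 0.46 beside 1.02, 0.284 beside 0.561 and 0.379 beside 0.626. The second closest genes were Haus8 for Fosl1, Rnf149 for Maff, Frmd4a for Junb and Pdk3 for Jund, at 0.21, 0.197, 0.135 and 0.0886. These distances describe 12 libraries that share sets and were chosen as the smallest among all genes with a mean of at least 10.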

How the data were processed

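Gene expression was measured by RNA sequencing in 12 libraries, 3 in each of 4 groups named by title. The authors deposited 3 tables of 6 libraries each, with a normalised signal per gene and library, per the file headers. The submitters' processing notes name Novoalign 2.08.01, DESeq2 and the rat build rn5, with no role given. The read counter, annotation, strandedness and handling of shared reads are not stated in those notes or headers. The log2 fold changes and p-values in the deposited tables are those of the authors.

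All values (100%) were whole multiples of 1 step per library within 0.001 read, so read counts were recovered from the deposited signal. Libraries in 2 tables held equal counts in 100% of shared genes, and the 3 tables were joined over 12899 genes with DESeq2 size factors. Chi-square over degrees of freedom for libraries of 1 group ran from 73.3 to 167, so none was a copy.

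The main test was limma 3.58.1 (R 4.3.3) on log2(value + 1), which understates changes of low genes, for genes averaging at least 10 normalised reads. The fit had a mean-variance trend, the set as a term and Benjamini-Hochberg adjustment over all genes at 0.05. Each pair of groups was fitted alone, on its deposited table or, for TNF-a within shTon cells, on joint values; the interaction and set tests used all 12. The set term rests on a check of the pairing: correlations of deviations from the group means were 0.609 to 0.889 in 18 same-set pairs and -0.741 to 0.18 in 36 others, and a DESeq2 refit came within a median of 0.000416 to 0.000607 of the authors' deposited log2 fold changes with the set and 0.016 to 0.0182 without. edgeR 4.0.16 and DESeq2 1.42.0 on recovered reads, pseudocounts, filters, scaling and left-out sets were alternatives. A limma fit with a set left out has fewer libraries per group, so its p-values rest largely on the spread pooled over all genes. The limma fit was also run on simulated data, for TNF-a in PLKO cells and for the interaction, with a common spread for all genes. Its recovery is not given here, and the edgeR and DESeq2 fits were not run on simulated data.

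The 10 genes, the gene lists and the design were chosen with earlier results of these data known. Named from each list are up to 3 called genes with the largest change or, where none passed, the gene with the smallest p; cell type markers named as called are outside that rule and were picked after their values were seen. Sequences come from RefSeq (GRCr8); no coordinates in the authors' build were used.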

Additional observations from a re-analysis of the deposited data

How the results depend on the processing

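Of 659 values under alternatives, 602 kept their direction and side of the threshold, 21 were no longer called, 4 became called and 32 changed sign; the cause was not tested. With no replicate block (no set term), 0 members were called for TNF-a in PLKO cells, by limma or edgeR, and 2 by DESeq2, against 3 with it; in shTon cells 0 were called by limma or edgeR and 3 by DESeq2. The edgeR and DESeq2 fits with no replicate block were added after seeing the data. With no mean-variance trend 0 were called in PLKO cells and 1 in shTon cells. The block changed no call in the shRNA or interaction tests, where no member was called.

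Maff for shTon_TNF against PLKO_TNF was 0.0016 with TMM scaling, 7e-04 and 0.0241 with edgeR with and without the block, and 0.0159 with DESeq2 without it, against -0.007; Fosl2 there was -0.0417 and -0.0499 with edgeR and DESeq2 without the block. In the interaction Maff was 0.102 and 0.104 with edgeR and 0.0822 and 0.0858 with DESeq2, with and without the block; Batf was -0.0671 and -0.155 with edgeR and -0.183 with DESeq2 without the block, against 0.77.

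Leaving out each set gave ranges across 0, for PLKO_TNF against PLKO_CTR, of -0.48 to 0.0136 for Fosl2 and -0.0756 to 0.18 for Jun. For shTon_CTR against PLKO_CTR they were -0.13 to 0.63 for Fosl1, -0.42 to 0.11 for Fosl2, -0.23 to 0.0288 for Junb, -0.0735 to 0.14 for Jund and -0.32 to 0.23 for Maff. For shTon_TNF against PLKO_TNF they were -0.0816 to 0.14 for Fos, -0.22 to 0.51 for Fosl2, -0.59 to 1.45 for Atf3, -0.13 to 0.91 for Egr1 and -0.19 to 0.15 for Maff. In the interaction they were -0.68 to 0.0281 for Fos, -0.10 to 0.39 for Fosl2 and -0.0799 to 0.11 for Maff, and Batf was -0.26 without set 3, the only such fit it passed the filter in.

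Over all genes, calls for TNF-a in PLKO cells numbered 1190, against 0 with no block, 55 with no trend, 696 with all 12 libraries and 545 without set 2; in shTon cells 405, against 6, 143, 619 with DESeq2 and 1105 without set 1. For the shRNA they numbered 31 with TNF-a and 14 without, against 367 and 399 with DESeq2, 488 and 283 without set 1, and 444 and 3 with all 12 libraries. Depth limits Batf, with 0 to 35 reads, and Atf3, with 7 to 201.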
